A study of Mus musculus with 12 samples.

Results

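The RIKEN mouse cDNA collection was made by cloning full-length transcripts from many tissues, and the first 4 characters of a clone name give the library a clone was picked from. The clones described here carry the library codes 4921, 4922, 4930, 4931, 4932 and 4933, all of adult mouse testis, and were chosen by that code alone from the probe names of the array. They number 874 of the 97836 non-control probes, with 1 probe to a clone: 550 clones of code 4930, 125 of 4933, 86 of 4932, 63 of 4921, 40 of 4931 and 10 of 4922. No probe was lost for lack of usable spots, 349 clones had 2 spots on each array and 525 had 1.

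The RNA came from spleens of female BALB/c mice that were 6 weeks old. OVA mice received ovalbumin, the egg-white protein used to raise an allergic response, by intraperitoneal injection at 2 mg/kg on 3 occasions (days 1, 3 and 5), and control mice received normal saline by the same schedule. Spleens were taken at day 14 or day 28, which gave 4 groups: 2 control and 4 OVA arrays at each day, each array hybridised with 1 Cy3-labelled sample. The labels name each array as a separate sample and do not say how mice map to arrays, so the p-values below measure the spread between these samples, which may in part be technical. The 4 control arrays shared 1 slide, while the OVA arrays of day 14 and of day 28 lay on a slide each, so OVA treatment and, within OVA mice, day cannot be told apart from slide.

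Testis transcribes an unusually wide part of the genome, because male germ cells loosen their chromatin as they pass through meiosis and rebuild it as sperm. Many of its transcripts are long non-coding RNAs (lncRNAs) or parts of sperm structures that other tissues do not make, and clones from it that had no known product received placeholder gene symbols ending in Rik. Spleen is a lymphoid organ of B cells, T cells, macrophages and red-cell precursors. The cell makeup of these spleens could not be checked through marker genes here, since 0 of the 39 germ cell, lymphoid, myeloid, erythroid and stromal markers looked for had a named probe. In whole spleen, fewer cells of a type and less RNA per cell cannot be told apart.

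A clone name followed by Rik was the current symbol or an older synonym of a RefSeq gene for 276 of the 874 clones (179 by symbol, 97 by synonym), which stand for 272 genes, while 598 clones had no such match. Of the matched clones, 199 belong to lncRNA genes, 70 to protein-coding genes, 4 to transcribed pseudogenes and 3 to other RNA classes. The match rests on the name; which strand or exon a probe reads is not stated in the labels or files. Sequences of the clones themselves were not used here. The stretches below show the DNA just before the start of 5 lncRNA genes. These were matched to clones named below for their day 28 difference or for the difference between days. Each gives the 250 bases before the RefSeq start of the gene on build GRCm38.p6, 5′ to 3′ on the strand of the gene, with every CG dinucleotide in capitals.

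4930534H03Rik (higher at day 28), chr10:91220620-91220869, - strand: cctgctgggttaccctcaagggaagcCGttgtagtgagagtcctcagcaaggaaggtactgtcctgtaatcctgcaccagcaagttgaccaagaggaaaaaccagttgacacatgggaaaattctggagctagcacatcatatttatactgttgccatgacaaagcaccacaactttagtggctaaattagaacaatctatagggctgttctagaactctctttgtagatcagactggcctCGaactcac
1700020G17Rik (lower at day 28), chr10:110896508-110896757, - strand: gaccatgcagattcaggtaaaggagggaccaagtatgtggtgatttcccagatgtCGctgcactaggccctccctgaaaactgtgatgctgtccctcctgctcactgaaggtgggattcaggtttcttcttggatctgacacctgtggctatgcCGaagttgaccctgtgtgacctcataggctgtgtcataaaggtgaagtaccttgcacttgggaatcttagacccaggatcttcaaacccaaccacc
4930401C15Rik (lower at day 28), chr10:25837438-25837687, - strand: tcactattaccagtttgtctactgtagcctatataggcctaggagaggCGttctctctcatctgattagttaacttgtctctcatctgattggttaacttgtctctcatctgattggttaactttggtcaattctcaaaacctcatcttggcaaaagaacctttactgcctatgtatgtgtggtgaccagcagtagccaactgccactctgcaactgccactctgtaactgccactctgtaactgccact
4930487H11Rik (lower at day 28), chr1:62794733-62794982, - strand: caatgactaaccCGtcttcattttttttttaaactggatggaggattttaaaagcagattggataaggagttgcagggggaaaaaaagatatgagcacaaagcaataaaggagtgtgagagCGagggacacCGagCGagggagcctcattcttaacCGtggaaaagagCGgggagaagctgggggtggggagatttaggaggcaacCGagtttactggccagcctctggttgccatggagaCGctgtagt
4933407K13Rik (lower at day 28), chrX:75764700-75764949, - strand: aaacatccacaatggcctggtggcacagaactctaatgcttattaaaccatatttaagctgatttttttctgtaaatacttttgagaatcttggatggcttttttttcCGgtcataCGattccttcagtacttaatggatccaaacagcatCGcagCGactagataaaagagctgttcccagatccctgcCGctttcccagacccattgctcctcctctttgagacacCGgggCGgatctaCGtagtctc

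The RefSeq table held such a stretch for 210 of the 272 matched genes. These 5 had between 1 and 8 CG dinucleotides, against a median of 6 over all 27025 promoters of the table and of 3 over its 9533 lncRNA promoters. Of 56 matched lncRNA genes with a probe well above background on all 12 arrays, 49 had such a stretch. Their median was 4 CG, and 15 of the 49 (30.6%) had 10 or more. Of 60 lncRNA genes whose clone was above background on no array, 45 had a stretch, with a median of 3 and 5 (11.1%) at 10 or more. The 59 with a stretch and a clone above background on 1 to 11 arrays had a median of 3, with 8 (13.6%) at 10 or more. Over all lncRNA promoters 15.9% reached 10, and these differences were not tested. For protein-coding matches the corresponding medians were 13 (25 genes, all arrays) and 12.5 (16 genes, no array). The letters TATAAA, read on both strands, were in 22 of the 210 stretches (10.5%) and in 13.0% of all promoters of that length, and 4930534H03Rik was the only one of the 5 that held them. The cAMP response element TGACGTCA, which reads the same on both strands, was in 3 of 210 (1.43%) and in 1.62% of all. Neither motif contains the other, and these are matches of letters only.

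A level here is the log2 of the background-corrected spot signal divided by the 75th percentile of signal on the same array, so 0 stands for the 75th percentile and each unit is a doubling. A probe counts as well above background on an array when Agilent's flag says so for each of its usable spots. On average over the 12 arrays, 57.5% of the testis-library clones were well above background (range 35.5% to 66.0%), against 75.5% of the 14801 other RIKEN clones and 72.5% of all probes. The testis-library share was lower than that of the other RIKEN clones on each of the 12 arrays, by 14.6 to 21.3 percentage points. By group it was 61.2% ± 6.80 in control mice at day 14 and 60.5% ± 0.0809 at day 28 (SD, n = 2 each), and 52.3% ± 11.4 in OVA mice at day 14 and 59.4% ± 1.94 at day 28 (SD, n = 4 each). The other 3 group means lay within 1 SD of that of OVA day 14. These shares were not tested. Each control day had 2 arrays, and OVA treatment cannot be told apart from slide.

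**Figure D1:**
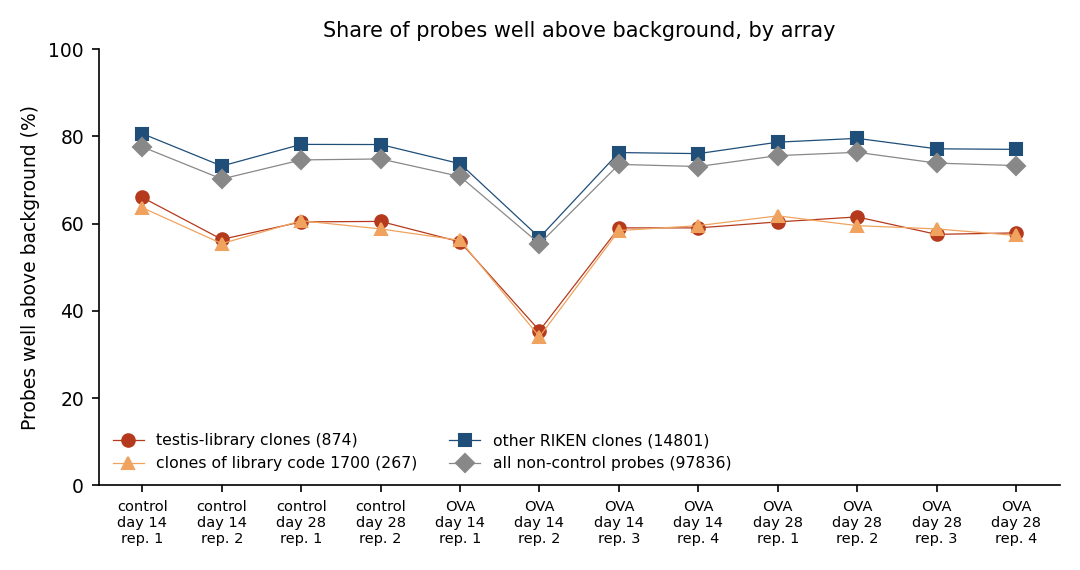
Percentage of probes well above background on each of the 12 arrays (x axis) for 4 sets of probes (y axis, 0 to 100%); the code 1700 clones are part of the other RIKEN clones, and lines only join points of a set. The testis-library clones run 14.6 to 21.3 points under the other RIKEN clones on every array, and all sets dip on OVA day 14 replicate 2, where the testis-library share is 35.5%.

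OVA day 14 replicate 2 stood apart from the other arrays: 35.5% of the testis-library clones were well above background there, and the other 3 OVA day 14 arrays gave 55.8%, 59.0% and 59.0%. All 310 clones above background on that array were above it on all 12, so this 1 array fixed how many clones were read everywhere. With it, 310 of 874 clones (35.5%) were above background on all arrays. On the other 11 arrays alone, 438 (50.1%) were, against 68.7% of the other RIKEN clones. At the opposite end, 255 clones (29.2%) were above background on no array, a count that did not move without that array, and the share was 14.4% among other RIKEN clones. The remaining 309 clones lay in between, 128 of them on 11 arrays.

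The codes ran from 45.8% (4922) to 67.3% (4931). Among the 84 RIKEN codes with at least 40 clones on the array, ordered from the lowest mean share above background, code 4932 was in place 1 (54.2%), 4933 was in place 3 (55.7%), 4930 in place 5 (57.9%) and 4921 in place 6 (58.2%), while 4931 was in place 19 (67.3%). Place 4 went to code 1700 (57.0%, 267 clones), which also names an adult testis library and lies outside the rule used here. The 79 codes outside the rule ran from 55.5% (G730) to 94.7% (E430), with a median of 76.8%. Code 4922 had 10 clones, too few for that order. Differences between neighbouring codes were not tested.

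Levels followed the same pattern. The median level of the testis-library clones was -3.73 on average over arrays (range -4.02 to -3.50) and that of the other RIKEN clones was -2.30, and on each array the testis-library median was lower, by 1.26 to 1.69 log2 units. Part of a probe's signal depends on its own sequence, so these medians describe sets of probes and not amounts of RNA. At the top, 87 clones had a mean level above 0 and 10 a mean level above 3.

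**Figure D2:**
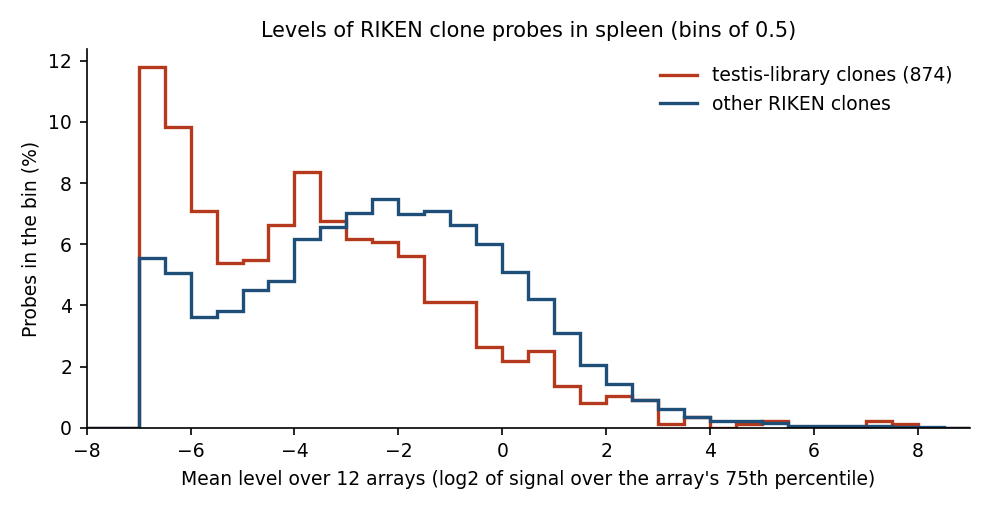
Mean level over the 12 arrays (x axis, log2 of signal over the 75th percentile of the array, bins of 0.5) against the percentage of probes in each bin (y axis), for the 874 testis-library clones and for the other RIKEN clones. The testis-library curve is higher at the dim end and lower between -2 and 2, and a few clones lie above 7.

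The brightest testis-library probes were bright on every array. Clone 4930586H24 read 7.62 and 7.73 in control mice at day 14, 7.79 and 7.91 at day 28, between 7.85 and 7.96 in OVA mice at day 14, and 8.10, 7.61, 7.53 and 7.33 in OVA mice at day 28. Its OVA and control arrays overlapped at day 28, as did its OVA arrays of the 2 days. At day 14 every OVA array was above both control arrays (difference 0.23, adjusted p = 0.559, limma). Its highest and lowest values both came from OVA day 28. The next were 4930441F12 (mean 7.33 over 12 arrays), 4930417B17 (7.03), 4930550C20 (5.43) and 4930565N07 (5.18), the last matched to the protein-coding gene C130026I21Rik. Then came 4930402C01 (4.73), 4930403L07 (3.99) and 4930518I15 (3.77). Among the clones tested, the steadiest was 4930412C07, which read between 0.74 and 1.02 on all 12 arrays (SD 0.0841), followed by 4930512P04 (SD 0.0908), 4930428D22 (0.0947) and 4933438D16 (0.0983).

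Lists meant for genes of sperm structures and spermatogenesis were filled by the start of the gene symbol, such as Ccdc or Tex. Being listed therefore does not show a role in germ cells. These lists held 7 clones, of which 4 were above background on no array. For all testis-library clones that share was 29.2%, and for the protein-coding matches it was 21 of 70. This difference was not tested. Of 4 clones in a list of sperm tail and cilium genes, those of Ccdc30 and Ccdc192 were above background on no array, Cfap97d2 on 1 and Ccdc163 on all 12. Of 3 clones in a list of spermatogenesis genes, Tex55 and Tex13b were on no array and Catsperd, a subunit of the calcium channel of the sperm tail, was on 2. Clone 4933403J23 (Tex13b) read between -7.00 and -5.24, with its highest value on OVA day 14 replicate 2. Adcy10, the soluble adenylyl cyclase of sperm, Hydin, a protein of the central apparatus of motile cilia, and Msh4, which acts in meiotic crossing over, were also on no array; these 3 are outside the lists and were chosen with their values in view. A probe that is not well above background does not show that the transcript is absent.

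Protein-coding matches that were read on all 12 arrays numbered 29 of 70, Setd2, a histone methyltransferase, and Rbbp6, Ppp6r3, Mtch2 and Efl1 among them, which were picked as examples. Another 21 were above background on no array and 20 on some. For lncRNA matches the counts were 57 of 199 on all arrays and 60 on none. The 62 lncRNA clones whose gene overlaps a protein-coding gene were on all arrays in 22 cases (35.5%), and the 137 others in 35 cases (25.5%); this difference was not tested. On the X chromosome lay 5 matched clones, 1 of them on all arrays and 2 on none.

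A clone entered the tests when at least 1 group had its probe well above background throughout, which 523 of 874 (59.8%) did, against 11467 of 14801 other RIKEN clones (77.5%). Of the 523, 310 were complete in all 4 groups, 141 in 3, 31 in 2 and 41 in 1 group only (21 in control day 28, 11 in control day 14, 9 in OVA day 28 and 0 in OVA day 14). The other 351 were complete in no group. Every clone above background on OVA day 14 replicate 2 was so on all 12 arrays, so none could be complete in OVA day 14 only. A control group is complete with 2 arrays and an OVA group with 4, so these counts do not compare the groups. Those that entered through 1 group could hardly look alike in all groups, so counts over the 523 are set beside the same counts over all 72515 features tested. All tests are limma's moderated tests over 12 arrays with Benjamini-Hochberg adjustment over the 72515 features and a threshold of 0.05. Signal at the 75th percentile was 484 to 549 on the OVA day 28 arrays and 267 to 368 on the other 8; its part in the day 28 results was not tested.

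At day 14, no testis-library clone differed between OVA and control mice at the threshold (limma, 0 of 523; 0.0676% of all features did). The lowest adjusted p was 0.0688. At an unadjusted p under 0.05 there were 79 clones (15.1%), close to the 14.7% of all features, and the arrays of the groups did not overlap for 120 (22.9%), against 23.1% of all features. Other settings gave 0 to 6 clones at the threshold, except that 30 (2 higher, 28 lower; 5.13%, against 3.02% of all features) passed without control day 14 replicate 2, which leaves replicate 1 as the lone control of that day. On control day 14 replicate 1, 3102 neighbouring spots read high together, by a median of 2.34 log2 units, and touched 32 testis-library probes. One of these, 4930477J04, read 1.06 there and between -4.36 and -3.34 on the other 11 arrays.

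The 3 clones with the largest test statistics at day 14 were all higher in OVA mice. Clone 4930554D03 read -2.56 and -2.54 in control mice and -1.61, -1.78, -1.82 and -2.04 in OVA mice, a difference of 0.74 ± 0.13 (SE, adjusted p = 0.0688, limma). No OVA array came down to a control array. Clone 4930413J11 read 0.44 and 0.32 in control mice against 0.84, 0.82, 0.90 and 0.86 in OVA mice (difference 0.47 ± 0.09, adjusted p = 0.0775, limma), and 4930528E08 read -2.13 and -2.14 against values from -1.77 to -1.59 (0.47 ± 0.09, adjusted p = 0.0775). These differences had the same sign in every array and missed the threshold.

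At day 28, 60 of the 523 clones (11.5%) differed between OVA and control mice, with 38 higher (7.27%) and 22 lower (4.21%) in OVA mice. Over all features 14.1% differed, 7.44% higher and 6.61% lower, and among the other RIKEN clones 14.5% did, so the share of testis-library clones that changed was not above the background. Of the other settings, 2 put it above: a normexp background correction, with 42.6% of clones against 38.1% of all features, and array position as a block, with 6.31% against 5.74%. Normexp also turned the split to 45 higher and 178 lower, with 22.9% of the calls over all features higher. The clones of code 1700, from the library outside the rule, gave 8 of 160 (5.00%). The median difference of the 523 was 0.02, against -0.03 over all features (-0.17 and -0.15 with normexp). Arrays of the groups did not overlap for 181 clones (34.6%), against 42.2% of all features. Of the 60, 57 were complete in both groups, where 458 clones could be read on all 6 arrays (12.4%, against 14.4% of all features). Fold differences of the 38 ran from 1.25 to 4.17 (median 1.52) and those of the 22 from 1.29 to 3.43 (median 1.48). These counts lean on the 2 control arrays, as do those over all features: without either, 1 control of that day is left and fewer passed. The median difference of the clones was -0.05 without control day 28 replicate 1 and 0.03 without replicate 2 (-0.05 and -0.03 over all features). Without OVA day 28 replicates 1, 2, 3 and 4 in turn, 35, 39, 40 and 62 clones passed. These were 6.68% to 11.7% of clones, against 7.95% to 12.7% of all features, and the clone share was lower each time.

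**Figure D3:**
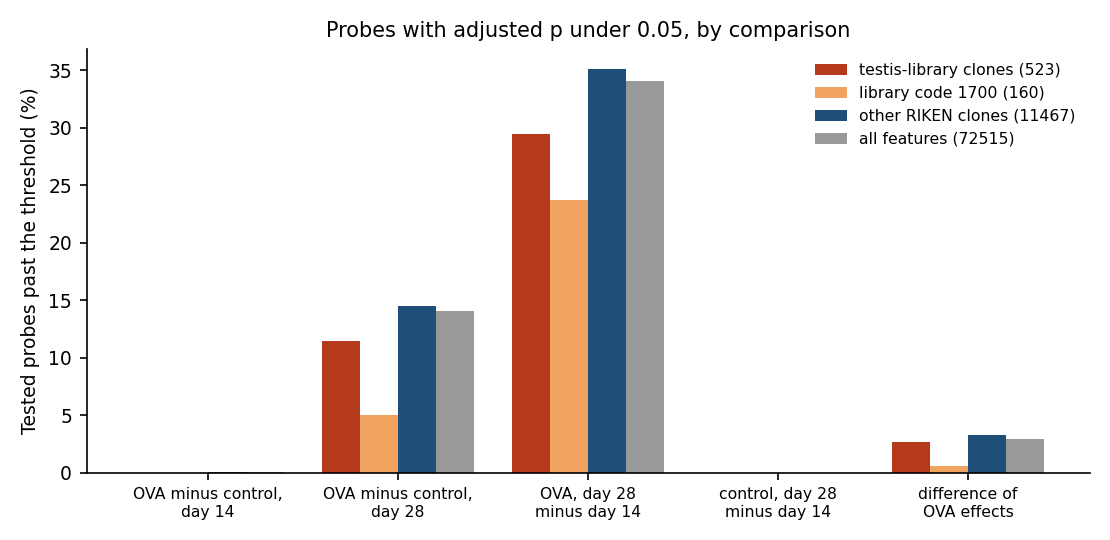
Percentage of tested probes with a limma adjusted p under 0.05 (y axis, from 0) in 5 comparisons (x axis), for the testis-library clones, clones of code 1700, other RIKEN clones (code 1700 included) and all features. At day 28, 11.5% of testis-library clones passed against 14.1% of all features; at day 14 and between the control days 0 did.

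The largest rise at day 28 was that of clone 4930402H05, which has no matched gene. It read -4.44 and -3.66 in control mice at day 28 and -2.04, -2.03, -1.96 and -1.94 in OVA mice, a 4.17-fold difference (log2 2.06 ± 0.23 SE, adjusted p = 0.00089, limma). The 4 OVA day 28 arrays were nearly equal and above all 8 other arrays, which ran from -4.44 to -3.15. It passed the threshold in all 24 other settings in which it was tested, with log2 differences from 0.70 (with another background correction) to 2.45.

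Clone 4930415I03, also without a matched gene, read 0.26 and 0.29 in control mice and 1.22, 1.47, 1.43 and 1.40 in OVA mice (1.10 ± 0.11, adjusted p = 0.00061, limma). Clone 4930503E12 read -1.17 and -0.80 against 0.21, 0.04, 0.03 and 0.07 (1.07 ± 0.14, adjusted p = 0.0014). For both, every OVA day 28 array was above every other array of the series, and both passed in all 25 other settings. Clone 4933438H19 read -2.57 and -2.45 against -1.88, -1.48, -1.70 and -1.49 (0.87 ± 0.17, adjusted p = 0.0095), and was lost when either control day 28 array was left out.

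Rnf139 codes for a ubiquitin ligase of the endoplasmic reticulum membrane, and its clone 4930555P18 had the highest difference past the threshold among clones matched to a protein-coding gene. It read 0.87 and 1.26 in control mice at day 28 and 2.23, 2.05, 1.97 and 2.32 in OVA mice, which is 2.11-fold (1.08 ± 0.21, adjusted p = 0.0094, limma). The OVA day 28 arrays were above all others, among them 1.34 and 0.85 in control mice at day 14. The gene overlaps Tatdn1 on chromosome 15, and without strand information the signals of the 2 genes cannot be told apart. The call was lost (adjusted p = 0.0917) without control day 28 replicate 1. The lncRNA clone 4930534H03Rik, whose gene lies within 100 kb of Tmpo on chromosome 10, read -2.37 and -2.28 against -1.19, -1.28, -1.54 and -1.64 (0.91 ± 0.20, adjusted p = 0.0147); it was lost without either control day 28 array.

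Among the 6 lowest differences, 2 were of probes at background on every OVA day 28 array. Clone 4933402M05 read -3.53 and -4.0 in control mice at day 28 and -5.20, -4.67, -6.87 and -5.45 in OVA mice (difference -1.78 ± 0.48, adjusted p = 0.0317, limma). None of the 4 OVA day 28 arrays was well above background, so only a bound can be given: at least 1.88-fold lower, taking for each OVA array the higher of its own signal and the lowest signal of any probe well above background there. The call was lost in 6 of 24 other settings. For 4930401C15Rik, a lncRNA on chromosome 10 with 1 CG in its promoter stretch, the values were -3.97 and -4.84 against -5.10, -5.41, -5.41 and -5.14 (-0.86 ± 0.23, adjusted p = 0.0330, limma). Only 1 of the 2 control day 28 arrays and 0 of the OVA day 28 arrays read it well above background, so no bound is given. The clone entered the tests only through control day 14, and the call was lost in 9 of 23 settings.

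Clone 4930480D05, matched to the lncRNA 1700020G17Rik within 100 kb of the cell cycle gene E2f7 on chromosome 10, read -2.63 and -2.37 in control mice and -3.44, -3.47, -3.92 and -4.32 in OVA mice (-1.29 ± 0.30, adjusted p = 0.0191, limma). Clones 4933433F22 and 4933409K08 fell by 0.90 ± 0.18 and 0.77 ± 0.14 (adjusted p = 0.0118 and 0.0084). All 3 had every OVA day 28 array below both control arrays of that day, which the rule for naming them required. The first 2 calls were lost without either control day 28 array, and that of 4933409K08 without replicate 2. The firmest fall was that of 4930579K09, a bright and even probe: 1.32 and 1.34 in control mice against 0.71, 0.58, 0.55 and 0.80 in OVA mice (-0.67 ± 0.11, adjusted p = 0.0047). All 8 arrays outside OVA day 28 lay between 1.26 and 1.54, and it passed in all 25 other settings.

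**Figure D4:**
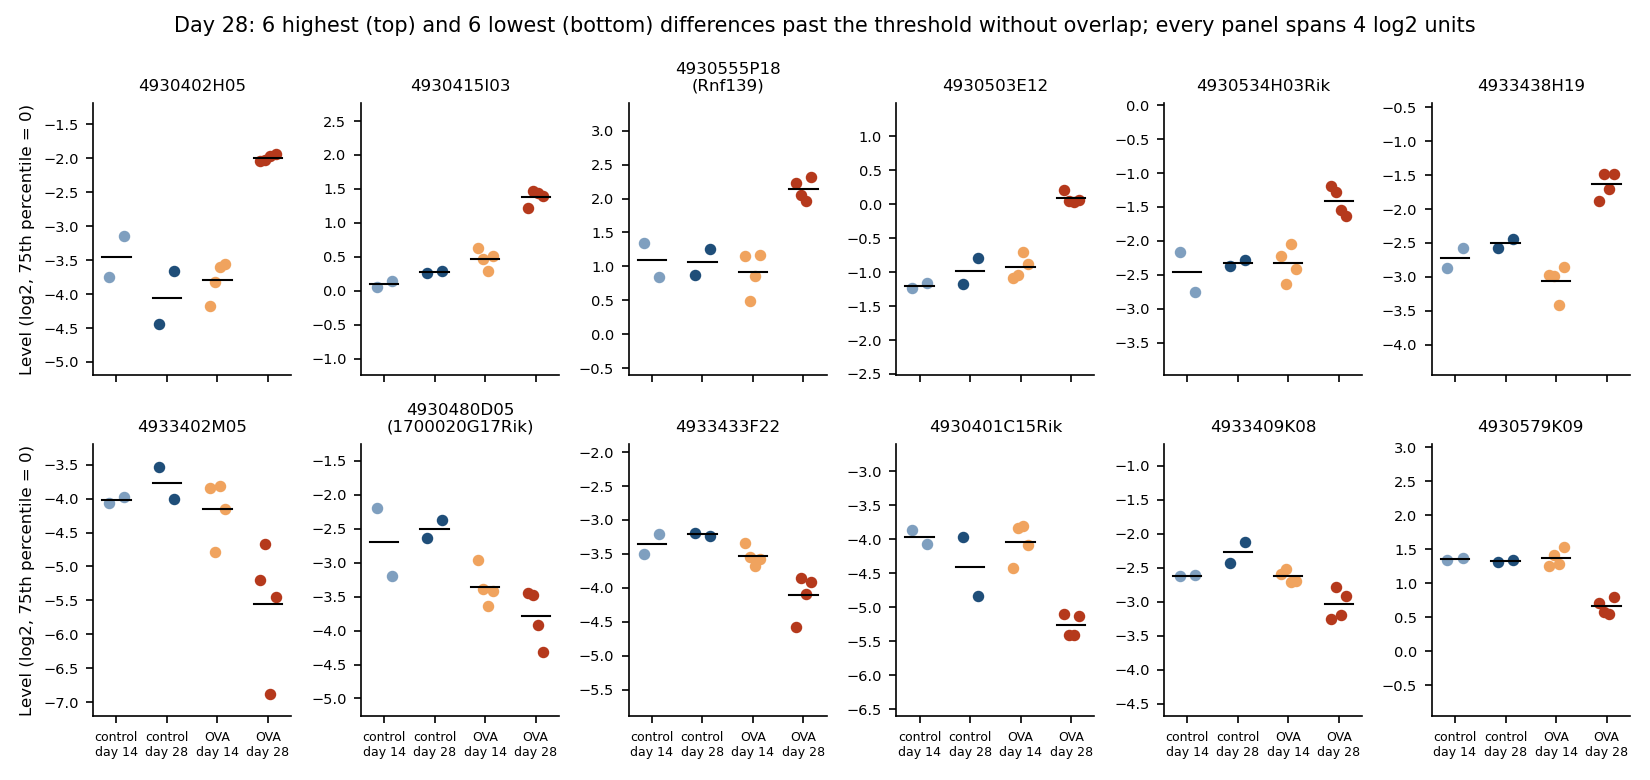
Level on each array (points, log2 with the 75th percentile of the array at 0) and group mean (bar) for the clones with the 6 highest (top) and 6 lowest (bottom) differences at day 28 among those past the threshold whose groups do not overlap; the groups on the x axis hold 2, 2, 4 and 4 arrays and every panel spans the same range. In the top row the OVA day 28 points lie above all other arrays, as for 4930402H05 (-2.04 to -1.94 against -4.44 to -3.15).

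Among the other matched clones past the threshold at day 28, Pigm, which adds the first mannose of the membrane anchor glycosylphosphatidylinositol, rose by 0.72, and Rttn, a centriole protein, by 0.67. The protein-coding 1700001O22Rik rose by 0.67 and Fbxw8, the substrate-binding part of a cullin ubiquitin ligase, fell by 0.42 (adjusted p from 0.0106 to 0.0365 for these 4, limma). Those 4 and Rnf139 are all of the 42 tested protein-coding matches that passed (4 higher, 1 lower). Of 116 tested lncRNA matches, 7 were higher and 6 lower. The higher lncRNAs included 4931431B13Rik (0.60), which overlaps the integrin gene Itgad, and 4930422I22Rik (0.60), within 100 kb of Tspan8. The lower ones included 4930487H11Rik (-0.56), which overlaps Nrp2, 4933407K13Rik (-0.57), within 100 kb of Pls3, and 4930438E09Rik (-0.51), which overlaps Ebf2. These 5 lncRNAs were picked as examples after their values were seen. The 359 tested clones without a matched gene gave 27 higher and 14 lower. Over all features 14.1% differed, 7.44% higher and 6.61% lower. Differences between these classes, or from all features, were not tested.

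In the lists of matched genes, filled by the start of the symbol, that of ubiquitin, RNA and cell cycle genes held 3 clones. Rnf139 rose, Fbxw8 fell, and Rnf32, a RING finger gene, differed by -0.45 (adjusted p = 0.0824, limma). None of the 3 clones of membrane and transport genes (Tmem214, Slc35b4, Slc29a3), of the 2 of zinc finger genes (Zfp184, Zfp943), or the 1 tested clone of the sperm tail and cilium list (Ccdc163, -0.28, adjusted p = 0.135) passed at day 28. The clone of Ppp1r9a, an actin-binding scaffold, had the highest difference of any matched clone, 1.27 ± 0.39, with an adjusted p of 0.0518; its OVA day 28 arrays (1.51 to 2.14) were all above its control arrays (0.73 and 0.24). It was singled out after its values were seen.

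The comparisons at day 14 and day 28 share no arrays, but the control arrays of both lie on the same slide. A difference of that slide would enter both comparisons with the same sign, so shared signs cannot be told apart from slide. Of the 38 clones that were higher at day 28, 31 had a positive difference at day 14 (median 0.20, against 0.60 at day 28), and 54.7% of all tested testis-library clones were positive at day 14. Of the 22 that were lower, 12 were negative at day 14 (median -0.01, against -0.56). The difference was larger in size at day 28 for 36 of the 38 and for all 22, which follows in part from choosing them by their day 28 values.

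**Figure D5:**
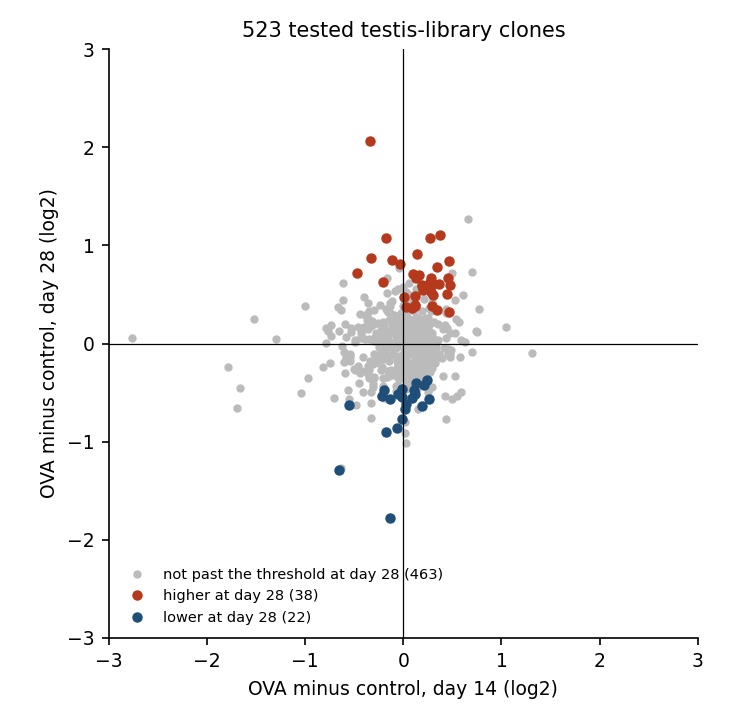
Log2 difference between OVA and control mice at day 14 (x axis) and day 28 (y axis) for the 523 tested clones, with the 38 higher and 22 lower at day 28 coloured. The point at the top is 4930402H05 (2.06 at day 28), and the points far left are clones whose control day 14 replicate 1 value is high, such as 4930477J04 (-2.76 at day 14).

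The difference between the OVA effects at the 2 days passed for 14 clones (2.68%; 9 higher at day 28, 5 lower), against 2.95% of all features (1.59% higher, 1.36% lower). The highest were 4930402H05 (2.40 ± 0.33, adjusted p = 0.0089, limma), Rnf139 (1.26 ± 0.30, adjusted p = 0.0482), 4933438H19 (1.20 ± 0.24, adjusted p = 0.0301) and Pigm (1.19 ± 0.20, adjusted p = 0.0200). Pigm read -0.65 and -1.17 in control mice against -1.23, -1.50, -1.45 and -1.34 in OVA mice at day 14, and -1.12 and -1.01 against -0.35, -0.19, -0.46 and -0.37 at day 28. Its OVA arrays were thus below the controls at day 14 and above them at day 28. At the other end were 4933407K13Rik and 4930549L05 (both -0.83), 4930579K09 (-0.69) and 4930487H11Rik (-0.65). For 4933407K13Rik the control arrays moved as well, from 0.39 and 0.33 at day 14 to 0.77 and 0.95 at day 28, while its OVA arrays read 0.59 to 0.68 and then 0.16 to 0.44. The control arrays of 4930487H11Rik also moved, from -1.08 and -1.18 to -0.75 and -0.80. Its OVA arrays read -1.07 to -0.97 and then -1.38 to -1.26. The count for the day difference ran from 1 to 45 as single arrays were left out, the highest without control day 14 replicate 2 and the lowest without control day 28 replicate 2; it was 0 with the position on the slide as a block. Of the 8 named calls, 4930402H05 was lost in 1 of 23 other settings and Pigm in 5 of 24, while 4933438H19 was lost in 9 of 23, Rnf139 in 14, 4930579K09 in 16, 4930487H11Rik in 13, 4930549L05 in 11 and 4933407K13Rik in 6 of 24.

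Within OVA mice, 154 clones (29.4%) differed between day 28 and day 14, 73 higher at day 28 (14.0%) and 81 lower (15.5%). Over all features 34.1% differed, 15% higher and 19.1% lower, and among other RIKEN clones 35.1%. Arrays did not overlap for 146 clones (27.9%), against 36.7% of all features. Of the 154, 109 were complete in both groups, where 310 clones could be read on every array (35.2%, against 37.6% of all features). Another 32 were complete only in OVA day 28, and 13 in neither group. Scaling by the spike-ins gave 128 clones, 92 of them higher (71.9%, against 71.6% of the calls over all features), and a normexp background correction gave 390, 57 of them higher (14.6%, against 19.5%). Normexp called 74.6% of the clones and 65.6% of all features. This comparison uses the same OVA day 28 arrays as the one against control mice at day 28, and here day 14 and day 28 lie on different slides.

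The highest rises within OVA mice were of 4930402H05 (1.80), 4933438H19 (1.42), 4930542J08 (1.41) and Rnf139 (1.22), each with a limma adjusted p at or under 0.00048. Clone 4930542J08 read -2.28, -2.41, -2.34 and -2.22 at day 14 and -0.70, -0.80, -1.08 and -1.03 at day 28. Its control arrays were scattered in between, at -1.28 and -2.12 at day 14 and -1.80 and -1.23 at day 28. Another pair of clones was above background on no OVA day 14 array and entered the test only through OVA day 28, the group in which they were high, so their differences are given as a description: 4930402L07, at least 1.18-fold higher at day 28, and 4930599N23Rik, which overlaps the histone demethylase gene Kdm7a, at least 1.39-fold. Both turned to negative differences under the normexp background correction.

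Among the falls past the threshold within OVA mice whose arrays did not overlap, the largest was that of 4930401C15Rik (-1.23, adjusted p = 0.00085, limma). It was well above background on 2 of the 4 OVA day 14 arrays and on 0 at day 28, so no bound is given. Next were 4930599F03, 4930513N24, 4930451D21, 4930545H08 and 4930550D20, by 0.95, 0.95, 0.91, 0.84 and 0.75 on the log2 scale (adjusted p from 0.00034 to 0.0097, limma). Clone 4930513N24 read -3.66, -3.40, -3.70 and -3.50 at day 14 and -4.56, -4.43, -4.36 and -4.70 at day 28, with no overlap. Clone 4933402M05 had a larger difference (-1.40, adjusted p = 0.0174), with overlapping arrays and every OVA day 28 array at background. The 6 without overlap lay close to background, between -5.41 and -2.89 on the OVA arrays. Fbxw8 and Rnf32 fell by 0.65 and 0.67 (adjusted p = 0.00056 and 0.0030) and Zfp184 by 0.32 (adjusted p = 0.0327), while clone 4921514B13, matched to Smap1, a GTPase-activating protein of Arf6, fell by 0.58 (adjusted p = 0.00024). This clone read 0.42, 0.29, 0.35 and 0.41 at day 14 and -0.24, -0.21, -0.23 and -0.15 at day 28, with control values of -0.03 to 0.10 between them; it was singled out after its values were seen. The RefSeq probe of Smap1, brighter and also above background on all 12 arrays, differed by 0.12 in the same comparison, so the 2 probes gave opposite signs; at day 28 against control mice they gave -0.21 (clone) and 0.20 (RefSeq probe).

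Between control mice of day 14 and day 28, which share a slide, no clone passed (limma, 0 of 523; 0.00138% of all features). The lowest adjusted p was 0.297 and 47 clones (8.99%) had an unadjusted p under 0.05, against 10.3% of all features. The largest test statistics were those of 4933407K13Rik (0.50 ± 0.12, adjusted p = 0.297), 4931440P22Rik, which overlaps Tiparp (0.75 ± 0.18, adjusted p = 0.316), and 4930432F18 (-0.54 ± 0.14, adjusted p = 0.341). Without control day 14 replicate 2, 26 clones passed (4.44%, against 2.48% of all features), 0 of them higher at day 28, where 21.8% of the calls over all features were higher.

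How far a value belongs to its probe can be seen where a gene was read more than once. For 4 genes a pair of testis-library clones was matched. Both clones of Rbm46os, a lncRNA that overlaps Lrat, were above background on all arrays and differed at day 28 by 0.57 (4930444E23, adjusted p = 0.0153, limma) and 0.36 (4930564K09, adjusted p = 0.0547). For 4930567H12Rik 1 clone was above background on all 12 arrays and the other on 0, and for 4930512B01Rik on 11 and 0. Clones and RefSeq probes matched to the same gene formed 18 pairs; in 6 both were above background on all arrays, and their day 28 differences had the same sign in 5 and differed by 0.61 at most (median 0.25). For the day 28 minus day 14 differences within OVA mice the sign was the same in 1 of the 6, and the levels of the 2 probes of a pair were up to 4.17 log2 units apart. The day 28 maximum was Gsdmcl2, a gasdermin gene of a family of near-identical copies, with 0.03 by its clone and 0.64 by the RefSeq probe. The 4933433N18Rik clone and its RefSeq probe gave -0.57 and -0.43, and those of 4930570G19Rik, with 2 RefSeq probes, 0.38 by the clone, and 0.44 and 0.06 by the RefSeq probes, the latter above background on no array.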

How the data were processed

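Spleen RNA was hybridised to 12 single-colour Agilent arrays. The deposited scanner files give spot intensity on a linear scale, background-corrected by Agilent Feature Extraction, version 11.5.1.1 per the file headers and 9.1 per the submitters' processing notes. The log2 of that processed signal minus the 75th percentile of the array was averaged over the spots of a probe that were not flagged as outliers; control spots were left out and no spot was saturated. The authors' deposited table of processed values holds no RIKEN clone and was not used. The number of arrays limits the precision.

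A feature is a probe with a usable spot on every array; of several RefSeq probes of a named gene, only that of highest mean level was kept. Features that at least 1 group read well above background throughout (72515 of 97095) entered 1 limma model (limma 3.58.1, R 4.3.3; 4 groups, 8 residual degrees of freedom), with eBayes and Benjamini-Hochberg adjustment over all of them and a threshold of 0.05. The fit was also run on simulated data with independent noise and known shifts. Those data had no slide difference, dim array or spots that read high together, so the run cannot speak to these. Clones were matched to RefSeq genes of GRCm38.p6 by name, and the neighbour given is one that overlaps or lies within 100 kb. The design allowed for clones read by several probes, but each clone has 1.

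The members and lists were chosen with earlier results of these data known. Named were the 6 highest and 6 lowest clones of the day 28 and the OVA comparisons among those past the threshold whose groups do not overlap, the 4 highest and 4 lowest of the day difference, the 3 with the largest statistics where none passed, the 8 highest levels, the 4 lowest SDs, and listed genes; other names were chosen after their values were seen. Alternatives covered background correction, scaling, filters, outlier spots, variance models, blocks and single arrays left out.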

Additional observations from a re-analysis of the deposited data

Results flagged for a closer look

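The share of testis-library clones well above background on OVA day 14 replicate 2 was 35.5%, far below the other 3 arrays of its group (55.8% to 59.0%). The other RIKEN clones dipped on the same array, to 56.8%. Among 86 groups of 4 arrays examined for 41 named clones and for the set as a whole, 4 had an array this far from the rest, and chance alone flags about 1 in 20 groups. The other 3 were clone 4930487H11 on OVA day 14 replicate 2 (-0.97, with the others at -1.07 to -1.06), 4930549L05 on OVA day 28 replicate 2 (0.79, others 0.55 to 0.57) and 4930512P04 on OVA day 28 replicate 2 (1.85, others 1.64 to 1.67).

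The test of the difference between days passed for 14 clones (limma, adjusted p under 0.05). The 8 flagged here are the 4 highest and the 4 lowest of them. The effect was higher at day 28 for 4930402H05 (2.40), 4930555P18 of Rnf139 (1.26), 4933438H19 (1.20) and 4933437L05 of Pigm (1.19). It was lower for 4930487H11 (-0.65), 4930579K09 (-0.69), 4930549L05 (-0.83) and 4933407K13 (-0.83). The day 14 spot of 4930555P18 on OVA replicate 4 lies in a group of 40 spots that read high together there; without these spots its value was 1.34 (adjusted p = 0.0421). With array position as a block 0 of the 8 passed, and single calls were lost in 1 (4930402H05) to 16 (4930579K09) of the settings tried. Slide and OVA group cannot be told apart in any of these 8.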

How the results depend on the processing

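At day 14 the count of 0 clones became 4 with a normexp background correction (on the median signal, since the files used here hold no mean), 1 with quantile normalization, 6 with spike-in scaling (0 higher), 4 with only probes above background on all arrays, 3 with trend and robust variance, and 0 to 30 with single arrays left out. At day 28 the 60 became 223 with normexp (45 higher; 42.6% of clones, 38.1% of all features), 33 with array position as a block (6.31% and 5.74%) and 12 to 72 with single arrays left out. Within OVA mice the 154 became 390 with normexp (57 higher; 74.6% and 65.6%) and 121 to 167 with single arrays left out. Between control days the 0 became 0 to 26 with single arrays left out. The day difference of 14 clones (9 higher) became 191 with normexp (21 higher; 36.5% and 30.4%), 1 with no filter on dim probes, 2 with array weights, 22 with trend and robust variance, 0 with array position as a block and 1 to 45 with single arrays left out; it was 16 (15 higher) with spike-in scaling and 14 (12 higher) with the percentile over probes above background. Normexp moved the median of all features to -0.15 at day 28 and -0.23 within OVA mice, and spike-in scaling to -0.21 at day 14 and 0.16 for the day difference. The median of the testis-library clones moved to -0.17 and -0.32 with normexp, and to -0.23 and 0.27 with spike-in scaling, in the same comparisons. The cause of these changes was not tested. Under normexp 4930402L07 turned to -0.32 (adjusted p = 0.0006, limma) and 4930599N23 to -0.10 (adjusted p = 0.203) within OVA mice. Leaving out the spots that read high together, chosen after seeing the data, gave 0, 64, 158, 0 and 15 clones.

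Whether replicate numbers pair the samples could not be decided from correlations between same-numbered arrays. OVA arrays of the 2 days correlated at -0.05 to 0.08. Control with OVA arrays gave 0.07 and 0.32 at day 14 and -0.18 and 0.16 at day 28. Between the control days both replicate numbers gave -0.08. With 2 control arrays a day, deviations from the group mean mirror each other, so these are not separate readings. With the replicate block 0 clones passed at day 14, 42 at day 28, 149 within OVA mice, 0 between control days and 2 for the day difference. The deposited table of processed values holds no such clone and gave no alternative. Dim probes, 255 clones on no array among them, limit what can be read.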
